A study of Mus musculus with 8 samples.

Results

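The matrix metalloproteinases and their tissue inhibitors, the TIMPs, were followed in whole mouse kidneys with and without Cox10 in the nephron. The set holds 7 proteases, Mmp2, Mmp3, Mmp7, Mmp9, Mmp10, Mmp12 and Mmp14, and 3 inhibitors, Timp1, Timp2 and Timp3. These 10 genes were matched by symbol to Ensembl identifiers among the 47643 genes of the count files, and each was found. Kidneys of 4 conditional knockout mice (cKO, Six2-Cre;Cox10-fl/fl, replicates 1 to 4) were compared with kidneys of 4 wild-type mice (WT, replicates 1 to 4). Mice were 3 months old except replicate 2 of each group, which was 2.5 months old. Cox10 makes an enzyme of heme A synthesis that complex IV of the respiratory chain needs. Six2-Cre recombines in nephron progenitors, so the nephron epithelium descends from cells that carry the deletion, while vessels, blood cells and the collecting duct do not. The labels do not say whether the WT mice carry Cre or a floxed allele.

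Matrix metalloproteinases are zinc-dependent proteases made as inactive proenzymes, and most are secreted. They cut collagens, fibronectin, laminin and other proteins of the matrix and of cell surfaces. TIMPs bind the active site and block it, and in the kidney the balance between the families is studied mainly in injury and fibrosis. Transcript counts report neither activation of a proenzyme nor its inhibition.

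Values are given as CPM, counts scaled to library size with the trimmed mean of M values (TMM). The libraries held 9454830 to 14837448 counts in cKO and 9731334 to 15838026 in WT. The sexes were unequal between the genotypes by reads of Y-linked genes, which were present in cKO 3 (848 counts) and in WT 2, WT 3 and WT 4 (829 to 1707 counts) and absent (0 counts) from the other 4 libraries. File headers number cKO 4 and WT 4 later than the other 6 libraries, and what the numbers stand for is not given in the sources used here. Cox10 itself was at 18.4 ± 5.12 CPM in cKO and 21.0 ± 2.47 CPM in WT (SD, n = 4 each), a log2 fold change of -0.19 that did not pass (edgeR quasi-likelihood, adjusted p = 0.619). The deleted part of the gene is not stated, so these counts do not check the labels. The closest pair of libraries in a genotype, WT 3 and WT 4, had a chi-square of 16.0 for each gene on average, far above sampling noise. Markers of the kidney were present in every library, those of the distal nephron and collecting duct summing to 2084 to 4152 CPM in cKO and 3163 to 5279 CPM in WT. Nothing in the labels says more of how the mice are related, and p-values measure the spread between these kidneys. In whole-organ RNA a change in the number of cells of a type and a change of RNA per cell cannot be told apart.

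Each of the 7 proteases, Timp1 and Timp2 had a higher level in every cKO kidney than in any WT kidney, and Timp3 had a lower one. For Mmp9, which was not tested, the gap was only 0.522 CPM in cKO 4 against 0.453 CPM in WT 4 (8 and 7 counts). For comparison, 22.6% of the 13829 tested genes had groups that did not overlap, 13.1% higher in cKO and 9.56% lower. Of the 10 genes, 9 reached the count filter, and in those 9 edgeR's quasi-likelihood test, adjusted by Benjamini-Hochberg across all 13829, called 8 higher and 1 lower. Over all tested genes 16.7% were called at the adjusted threshold of 0.05, 9.57% higher in cKO and 7.14% lower. Mmp2, Mmp12, Mmp14, Timp2 and Timp3 met the filter of about 10 counts in all WT libraries. Mmp3, Mmp7, Mmp10 and Timp1 met it in at most 1 WT library, so they entered the test through the cKO kidneys and had to differ, and the count over the set is not read as support.

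**Figure D1:**
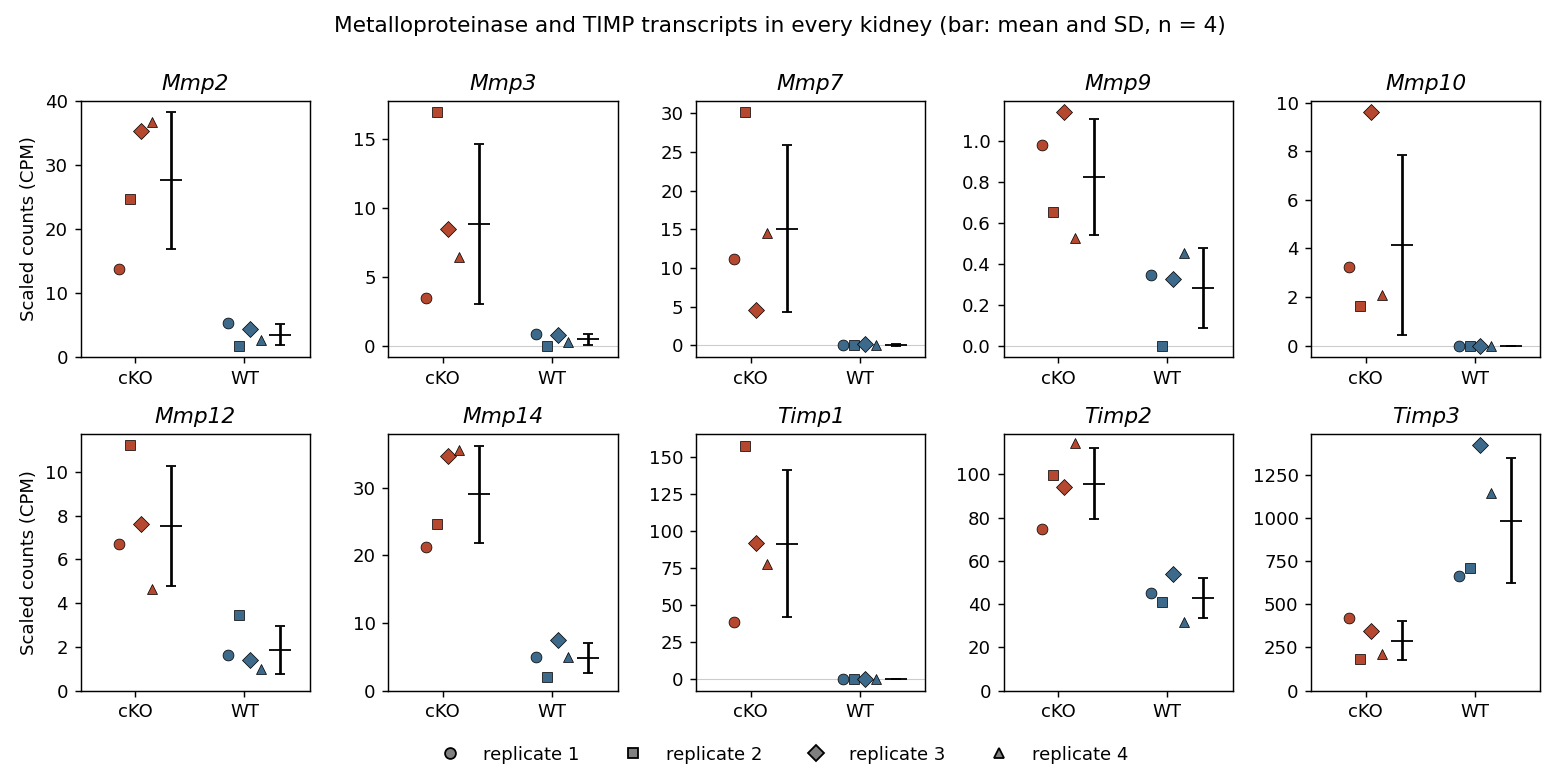
Level of each of the 10 genes in every kidney, in CPM (TMM-scaled) on a linear axis of its own per gene; symbols mark the replicate number and bars the mean and SD of 4 kidneys. In each panel the 4 cKO points do not overlap the 4 WT points, with Timp3 the gene that is lower in cKO. For Mmp9 the gap is small, 0.522 CPM in cKO 4 (8 counts) against 0.453 CPM in WT 4 (7 counts).

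Timp1 encodes a secreted inhibitor whose transcript is low in most healthy tissues and is induced by injury and cytokines. It was at 38.8, 158, 92.0 and 78.0 CPM in cKO 1 to cKO 4, against 0.431, 0.230, 0.327 and 0.453 CPM in WT 1 to WT 4. The WT values rest on 2 to 7 counts per library and the cKO values on 636 to 1451. The lowest cKO kidney lay far above the highest WT kidney, and the cKO kidneys differed among themselves by 4.07-fold. The log2 fold change was 7.91 (SE 0.51, edgeR adjusted p = 1.85e-05), which is 240.5-fold. With any single library left out it was 7.51 to 8.16. Timp1 lies at chrX:20870166-20874735 (mm10, plus strand), inside the span of Syn1 on the opposite strand, and Syn1 held at most 4 counts in any library.

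Timp2 encodes an inhibitor that also docks pro-Mmp2 on Mmp14 at the cell surface. It was at 74.8, 99.4, 94.1 and 114 CPM in cKO 1 to cKO 4, against 45.0, 41.0, 54.1 and 31.8 CPM in WT 1 to WT 4. The groups were close but did not overlap, and Timp2 varied less between cKO kidneys than any of the other 9 genes, with a coefficient of variation of 17.1%. The difference was 1.15 on the log2 scale (SE 0.22, edgeR adjusted p = 0.00579). Without cKO 4 and WT 4 it was 0.91 and did not pass (adjusted p = 0.0826), a setting in which 4.1% of all genes were called.

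Timp3 encodes the inhibitor that stays bound to the matrix and that also blocks ADAM17 and several aggrecanases. It was at 419, 182, 346 and 210.3 CPM in cKO 1 to cKO 4, against 660.3, 709.9, 1422 and 1141 CPM in WT 1 to WT 4. All 4 cKO kidneys were below all 4 WT kidneys, with cKO 2 and cKO 4 lowest. The log2 fold change was -1.76 (SE 0.36, edgeR adjusted p = 0.00841). The call ended with a term for sex, at -1.47 and adjusted p = 0.0515, and without cKO 4 and WT 4, at -1.58 and adjusted p = 0.0872. Markers of the proximal tubule moved the same way. Their 7 transcripts summed to 4796, 1608, 4650 and 2814 CPM in cKO 1 to cKO 4. In WT 1 to WT 4 the sum was 6197, 8075, 10127 and 10269 CPM. Of the 7, 3 were called lower, Slc5a2, Lrp2 and Slc34a1, beside 7.14% of all tested genes. These calls also ended with the sex term (edgeR adjusted p = 0.0584, 0.100 and 0.178 in that order) and without cKO 4 (0.0723, 0.0916 and 0.125). Within cKO the kidneys had the same order for the proximal sum and for Timp3, and within WT the order differed in WT 3 and WT 4. The part of tubule content in the Timp3 value was not tested. Timp3 lies at chr10:86300372-86349506, within Syn3 on the opposite strand. Syn3 held 3 to 27 counts in cKO and 26 to 106 in WT, against at least 1671 counts of Timp3 in each library.

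Which inhibitor made up most of the TIMP transcripts differed between the genotypes. On a scale of CPM per kilobase of the longest coding transcript, which allows levels of different genes to be compared, the 4 TIMP genes summed to 191 ± 41.6 in cKO and 220.3 ± 77.8 in WT (SD, n = 4 each), ranges that overlap. Timp1 made up 28.7%, 73.1%, 51.3% and 53.9% of the sum in cKO 1 to cKO 4 and 0.117% to 0.320% in WT. Timp3 made up 34.2 ± 17.9% in cKO and 94.1 ± 2.13% in WT. The ratio of Timp1 to Timp3 was 0.495, 4.64, 1.42 and 1.98 in cKO 1 to cKO 4, so that Timp1 was above Timp3 in 3 of the 4 cKO kidneys and below it in cKO 1. In WT the ratio was at most 0.00349. With merged exons as the gene length, an alternative chosen after seeing the data, the mean Timp1 share was 59.7% in cKO and 0.330% in WT.

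**Figure D2:**
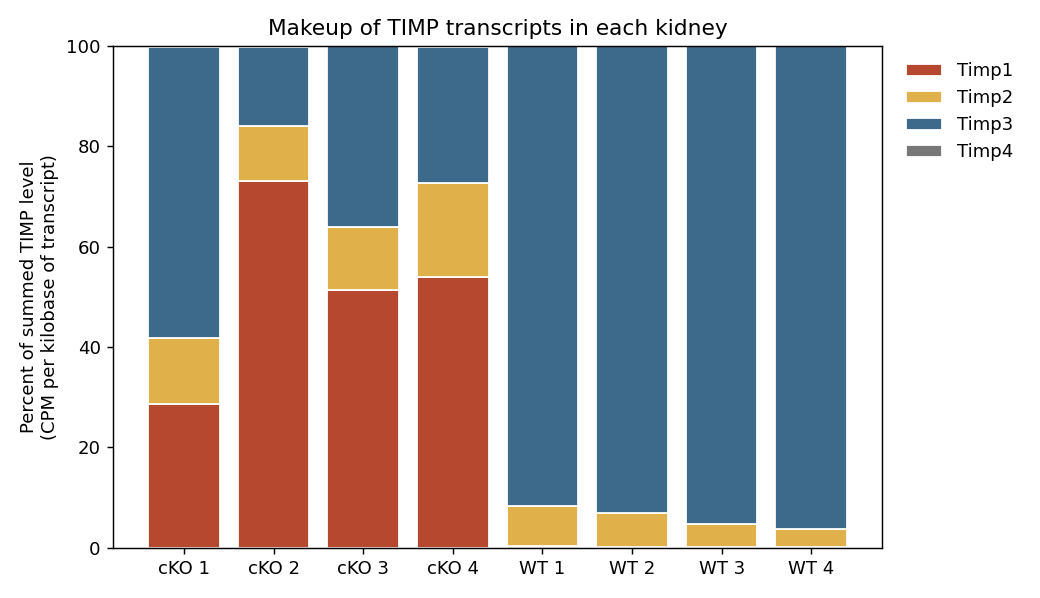
Percent of the summed TIMP level (CPM per kilobase of the longest coding transcript) held by Timp1, Timp2, Timp3 and Timp4 in each of the 4 cKO and 4 WT kidneys, stacked from the bottom in that order. Timp3 holds most of every WT bar, while Timp1 holds 28.7% to 73.1% of the cKO bars.

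Mmp14 and Mmp2 act in series in the textbook scheme, Mmp14 being the membrane-anchored collagenase that cuts pro-Mmp2 into the active gelatinase. Mmp14 (chr14:54431612-54445364) was at 21.2, 24.6, 34.7 and 35.6 CPM in cKO 1 to cKO 4, against 5.0, 2.07, 7.51 and 4.98 CPM in WT 1 to WT 4. The log2 fold change was 2.56 (SE 0.35, edgeR adjusted p = 0.000883). The lowest cKO kidney was well above the highest WT kidney. Mmp2 (chr8:92827291-92853420) was at 13.7, 24.6, 35.3 and 36.6 CPM in cKO 1 to cKO 4, against 5.18, 1.72, 4.33 and 2.52 CPM in WT 1 to WT 4. Its log2 fold change was 2.99 (SE 0.40, edgeR adjusted p = 0.000824). For both genes cKO 1 was the lowest and cKO 4 the highest of the cKO kidneys, and WT 2 the lowest of all 8. On the scale per kilobase the levels of Mmp14 and Mmp2 were alike within a genotype, at 8.96 ± 2.22 and 8.95 ± 3.47 in cKO and at 1.51 ± 0.687 and 1.12 ± 0.517 in WT. Fibroblasts are a known source of both, and the 8 fibroblast markers summed to 490 to 1009 CPM in cKO and 147 to 242 CPM in WT. Of these markers 7 were called higher and Pdgfra lower, beside 9.57% and 7.14% of all tested genes. The calls of Postn, Dcn, Lum and Pdgfra ended with a term for sex (edgeR adjusted p = 0.0945, 0.106, 0.0941 and 0.123 in that order). Dcn, Lum and Pdgfra are named after their values were seen. The part of the fibroblast markers in the Mmp2 and Mmp14 values was not tested.

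Mmp9, the gelatinase best known from neutrophils and macrophages, was near the limit of detection. It was at 0.977, 0.653, 1.14 and 0.522 CPM in cKO 1 to cKO 4, against 0.345, 0, 0.327 and 0.453 CPM in WT 1 to WT 4. These are 16, 6, 16 and 8 counts in cKO and 4, 0, 4 and 7 counts in WT. It did not reach the count filter. The groups did not overlap, which gives p = 0.0286 by an exact permutation test (two-sided), the smallest this design allows and the value that each of the other 9 genes also takes. With no count filter the log2 fold change was 1.44 (edgeR adjusted p = 0.184), and DESeq2 gave 1.49 (adjusted p = 0.152). The defining neutrophil markers were at or near 0 in both genotypes. The 9 of them summed to 0.427 to 2.92 CPM in cKO and 0.776 to 2.24 CPM in WT, and 7 of the 9 held at most 10 counts in each library.

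Mmp7, Mmp3 and Mmp10 were almost absent from WT kidneys. Mmp7 encodes matrilysin, a small protease of epithelial cells that is induced in injured tubules. It was at 11.2, 30.1, 4.55 and 14.5 CPM in cKO 1 to cKO 4, against 0.0863, 0, 0.163 and 0 CPM in WT 1 to WT 4. The WT kidneys held 3 counts in all and the cKO kidneys 747. The log2 fold change was 7.70 (SE 0.81, edgeR adjusted p = 0.000221), and it ranged from 7.13 to 8.63 with any single library left out. The cKO kidneys differed among themselves by 6.62-fold, cKO 2 being highest and cKO 3, the cKO library with Y-linked reads, lowest.

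Mmp3 and Mmp10 encode stromelysins, close relatives with a broad range of matrix substrates. Mmp3 was at 3.48, 17.0, 8.46 and 6.46 CPM in cKO 1 to cKO 4, against 0.863, 0, 0.735 and 0.259 CPM in WT 1 to WT 4. Its log2 fold change was 4.18 (SE 0.68, edgeR adjusted p = 0.0024). Every cKO kidney was above every WT kidney. Mmp10 was at 3.23, 1.63, 9.60 and 2.09 CPM in cKO 1 to cKO 4, against 0 counts in all 4 WT libraries. Its mean in cKO, 4.14 ± 3.70 CPM (SD, n = 4), was 66.3-fold the limit of 3 counts over the WT group, 0.0625 CPM. That ratio allows for counting error in WT and leaves out the spread between cKO kidneys, of which cKO 3 was far the highest. The edgeR test of Mmp10, which does not use this ratio, gave adjusted p = 0.00259. The order of the cKO kidneys differed between the stromelysins, Mmp3 being highest in cKO 2 and Mmp10 in cKO 3. The transcripts share 140 stretches of 50 bases, 7.99% of those of Mmp3 and 8.37% of those of Mmp10, and reads from them cannot be told apart. In cKO 2 the deposited estimates were fractional, 155.9 counts for Mmp3 and 15.1 for Mmp10. The other 8 genes share no such stretch with one another.

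Mmp12 encodes macrophage elastase. It was at 6.71, 11.2, 7.61 and 4.63 CPM in cKO 1 to cKO 4, against 1.64, 3.44, 1.39 and 0.970 CPM in WT 1 to WT 4. The groups did not overlap, with cKO 4 only a little above WT 2. The log2 fold change was 2.04 (SE 0.42, edgeR adjusted p = 0.00842). In each genotype the 2.5-month kidney, replicate 2, was the highest. Macrophage markers were also higher in cKO, the 10 of them summing to 432, 782, 663 and 514 CPM in cKO 1 to cKO 4 and to 221, 138, 124 and 111 CPM in WT 1 to WT 4. Within the genotypes the order was not the same. In WT the sum was highest in WT 1 and Mmp12 in WT 2, and in cKO the sum was lowest in cKO 1 and Mmp12 in cKO 4. Of the 10, 9 were called higher, beside 9.57% of all tested genes. Among them Cd68 was at 15.0 ± 6.06 CPM in cKO and 2.24 ± 1.11 CPM in WT (SD, n = 4 each). Adgre1, named after its values were seen, lost its call (edgeR adjusted p = 0.0441) with the sex term (0.100). It also lost it without each single library other than WT 1 (0.0592 to 0.123). Among libraries without Y-linked reads its log2 fold change was 0.09 and that of Cd68 2.18. The part of macrophage content in the Mmp12 value was not tested.

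**Figure D3:**
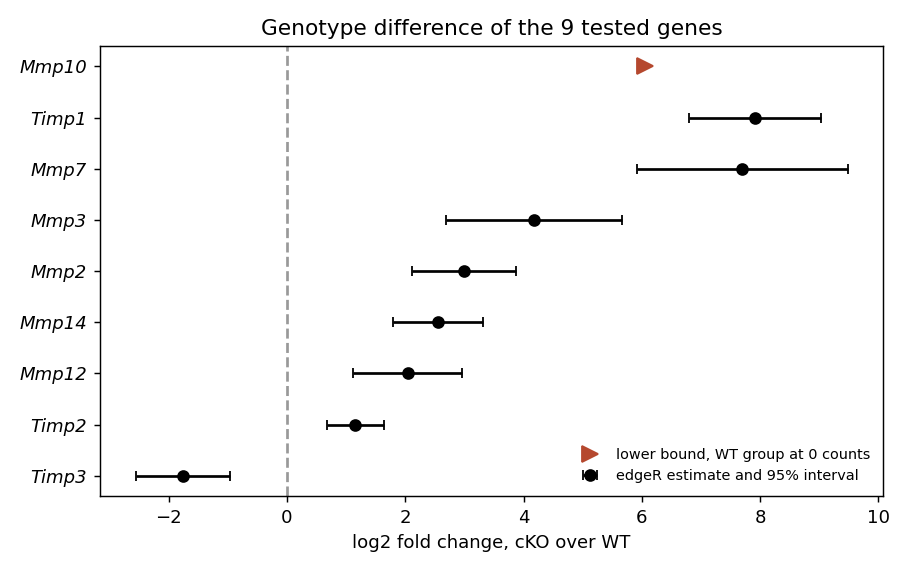
log2 fold change, cKO over WT, for the 9 tested genes (4 kidneys per genotype). Points and bars give the edgeR estimate and its 95% interval. The triangle, labelled lower bound, marks the mean of Mmp10 in cKO over a floor of 3 counts in the WT group. It leaves out the spread between cKO kidneys and is not a limit like those of the bars. The edgeR interval of Mmp10, not drawn, starts at 5.97. The intervals of Timp1, Mmp7, Mmp3, Mmp2, Mmp14, Mmp12 and Timp2 lie right of 0, and that of Timp3 lies left of it.

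Mmp3, Mmp7, Mmp10 and Mmp12 are neighbours in a cluster of 10 metalloproteinase genes that spans 427 kb on chromosome 9 (chr9:7272514-7699585, mm10). In order along the chromosome the cluster holds Mmp13, Mmp12, Mmp1b, Mmp3, Mmp1a, Mmp10, Mmp8, Mmp27, Mmp20 and Mmp7. It summed to 1859 counts over the cKO libraries and 158 over the WT libraries. The difference was not shared by all of its genes. Mmp1a, Mmp1b, Mmp8 and Mmp20 held at most 2 counts in any library. Mmp27 held 4 to 8 counts in each cKO library and 0 in WT, and it was below the filter. Mmp13, a collagenase, ran the other way in raw counts, with 5 in each cKO library against 20, 2, 15 and 13 in WT 1 to WT 4, groups that overlapped. It was below the filter too, and both genes are named here after their values were seen.

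**Figure D4:**
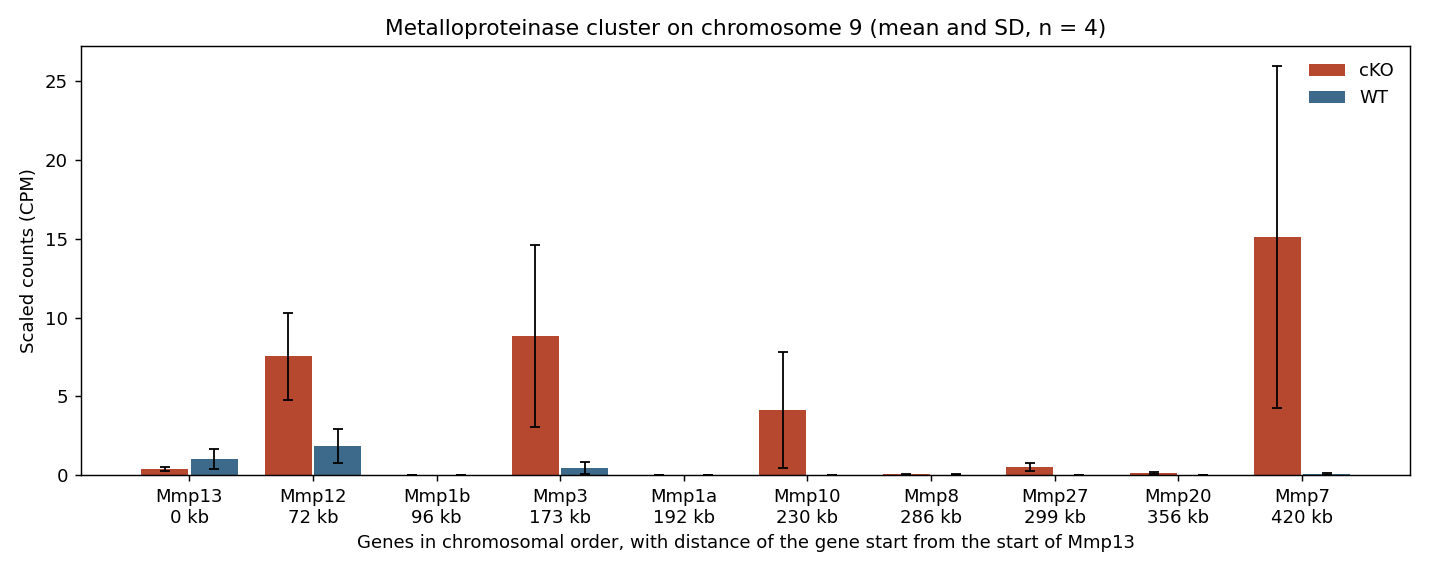
Mean level (CPM, bars from 0, with the SD of 4 kidneys) of the 10 genes of the chromosome 9 cluster in cKO and WT, in chromosomal order and labelled with the distance of each gene's start from that of Mmp13. Mmp12, Mmp3, Mmp10 and Mmp7 stand above the WT bars, and the genes between them are close to 0 in both genotypes.

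Promoters of metalloproteinases with a TATA box are textbook targets of AP-1, the Fos and Jun dimer that injury and cytokine signals activate. The 250 bases before the RefSeq start (RefSeq, GRCm38.p6) were available for 8 of the 10 genes, not for Mmp2 and Mmp9. They were searched on both strands for the AP-1 motif TGANTCA, the ETS core AGGAAG and the TATA box TATAAA, none of which contains another. The windows of Mmp3, Mmp7 and Mmp10, which were near 0 in WT, are printed 5′ to 3′ with that of Timp1, which was near 0 in WT too and holds no AP-1 match. Capitals mark the AP-1 match.
Mmp3, chr9:7445572-7445821, plus strand: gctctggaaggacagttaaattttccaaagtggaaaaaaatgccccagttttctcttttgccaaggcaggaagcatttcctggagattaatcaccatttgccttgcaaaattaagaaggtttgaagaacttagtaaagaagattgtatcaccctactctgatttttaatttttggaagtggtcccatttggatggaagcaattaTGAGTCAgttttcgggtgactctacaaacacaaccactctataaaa
Mmp7, chr9:7691840-7692089, plus strand: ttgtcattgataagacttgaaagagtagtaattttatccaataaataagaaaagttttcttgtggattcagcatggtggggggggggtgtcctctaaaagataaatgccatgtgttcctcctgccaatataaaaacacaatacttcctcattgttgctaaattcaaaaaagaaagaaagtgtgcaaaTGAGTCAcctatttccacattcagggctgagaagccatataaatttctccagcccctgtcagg
Mmp10, chr9:7502092-7502341, plus strand: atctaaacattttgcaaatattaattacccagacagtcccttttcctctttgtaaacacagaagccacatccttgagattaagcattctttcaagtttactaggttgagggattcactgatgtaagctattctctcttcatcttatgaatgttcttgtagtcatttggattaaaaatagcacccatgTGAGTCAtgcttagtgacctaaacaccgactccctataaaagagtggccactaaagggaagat
Timp1, chrX:20869916-20870165, plus strand: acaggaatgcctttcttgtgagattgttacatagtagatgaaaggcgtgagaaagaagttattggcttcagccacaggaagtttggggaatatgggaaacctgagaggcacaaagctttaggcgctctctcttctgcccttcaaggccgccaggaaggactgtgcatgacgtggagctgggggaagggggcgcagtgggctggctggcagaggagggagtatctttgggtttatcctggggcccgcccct
An AP-1 match stood in 3 of the 8 windows, those of Mmp3, Mmp7 and Mmp10, as the same letters TGAGTCA in each. It began 46 bases before the start in Mmp3 and 63 bases before it in both Mmp7 and Mmp10. Of all 32851 mouse windows of this length, 6.75% hold the motif, and 2.73% hold it within 100 bases. A TATA match stood in the same 3 genes, against 12.4% of all windows, and began 7, 26 and 29 bases before the start in Mmp3, Mmp7 and Mmp10, with a further match at 123 bases in Mmp7. The ETS core stood in 6 of the 8, against 29.5% of all windows. A match is a description of letters, and no binding was measured.

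Across the genes, the order of levels per kilobase differed between the genotypes. In cKO Timp1 was highest (104 ± 56.1 CPM per kilobase), followed by Timp3 (61.3 ± 23.8), Timp2 (25.8 ± 4.42) and Mmp7 (14.1 ± 10.2). Timp1 and Timp3 overlapped between kidneys in that order, as did Mmp7, Mmp14 and Mmp2. Mmp3 (4.91 ± 3.22), Mmp10 (2.40 ± 2.15) and Mmp12 (2.09 ± 0.760) followed and were not separated by their spread, and Mmp9 was lowest (0.259 ± 0.0895). In WT Timp3 was highest (208 ± 77.0), then Timp2 (11.6 ± 2.50), Mmp14 and Mmp2. Mmp12 (0.516 ± 0.303), Timp1 (0.408 ± 0.117) and Mmp3 (0.258 ± 0.224) lay within each other's spread.

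All metalloproteinase genes together, the 7 described and the 16 others of the family, summed to 57.7 ± 15.2 CPM per kilobase in cKO and 10.5 ± 2.46 in WT. Mmp7 took 23.6 ± 12.4% of that sum in cKO and 0.479 ± 0.627% in WT. Mmp14 took a like share in both, 16.1 ± 4.13% in cKO and 14.3 ± 5.80% in WT. Mmp23, a membrane-anchored member, took 14.7 ± 0.625% in cKO and 32.8 ± 12.8% in WT, the highest mean share in WT. In WT 3 it took 17.7%, below Mmp14 and Mmp11 at 20.02% each. Protease transcripts per inhibitor transcript came to 0.253, 0.308, 0.271 and 0.377 in cKO 1 to cKO 4, against 0.0885, 0.0525, 0.0366 and 0.0340 in WT 1 to WT 4. The inhibitors stayed above the proteases in every kidney, and the groups did not overlap.

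Since the sexes were unequal between the genotypes, the genotype difference was also taken with a sex term and within libraries of like Y-linked reads. With the sex term 8 of the 9 tested genes stayed called, all but Timp3, while over all genes 6.8% were called. Of these 8, Mmp3, Mmp7, Mmp10 and Timp1 had entered the test through the cKO kidneys. Among libraries with Y-linked reads, cKO 3 against WT 2, WT 3 and WT 4, 6 were called and Mmp12, Timp2 and Timp3 were not, with 3.47% of all genes called. Among libraries without them, cKO 1, cKO 2 and cKO 4 against WT 1, Timp1 and Mmp7 were called, with 0.868% of all genes called. In both contrasts a genotype is a lone library that is assumed to vary like the others. Every one of the 9 kept its direction in both, with Mmp2 at 3.61 with Y-linked reads and 2.27 without, and Timp3 at -1.66 and -1.29. The interaction of genotype and Y-linked reads was called by edgeR for 0.0651% of genes and for 0 of the 9, of which 0 reached an unadjusted p of 0.05. The highest and lowest estimates other than that of Mmp10 were 1.34 (SE 0.80) in Mmp2 and -1.46 (SE 2.27) in Mmp7. Intervals of that width do not show that the sexes respond alike.

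In the rest of the family, 16 further metalloproteinases and Timp4, 9 genes held at most 10 counts in each library. Others were not silent, Mmp23 and Mmp11 taking 32.8% and 16.0% of the summed metalloproteinase level in WT on average. Of the 17 genes 6 were tested and 3 were called higher, beside 9.57% of all tested genes. Mmp23 was at 12.1 ± 3.00 CPM in cKO and 4.80 ± 1.69 CPM in WT, with a log2 fold change of 1.34 (edgeR adjusted p = 0.0138). Mmp11, stromelysin 3, was at 9.93 ± 3.11 CPM in cKO and 3.88 ± 1.34 CPM in WT, also 1.34 (adjusted p = 0.0191). Timp4, an inhibitor of restricted tissue range, was at 1.82 ± 1.05 CPM in cKO and 0.375 ± 0.228 CPM in WT, at 2.26 (adjusted p = 0.0257). All 3 calls ended with the sex term, where adjusted p was 0.0625, 0.0711 and 0.140 in that order. The call of Mmp11 also ended without cKO 4 (adjusted p = 0.0704) and without WT 4 (0.0597), and that of Timp4 without cKO 2 (0.0702), cKO 4 (0.0605) or WT 4 (0.0658).

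Among 13 genes that activate proteases or hold them at the cell surface, 12 were tested and 6 were called higher. The share called higher over all tested genes was 9.57%. Serpine2, an inhibitor of serine proteases, was at 118 ± 32.9 CPM in cKO and 11.4 ± 2.59 CPM in WT. Its log2 fold change was 3.37 (SE 0.28, edgeR adjusted p = 5.16e-05). Cd44, a hyaluronan receptor that anchors Mmp9, was at 15.9 ± 2.03 CPM in cKO and 1.89 ± 0.476 CPM in WT (log2 fold change 3.07, adjusted p = 6.82e-05). Lcn2, which marks injured tubules, was at 543 ± 375 CPM in cKO and 2.97 ± 2.21 CPM in WT (7.53, adjusted p = 0.000118). The calls of these 3 genes held with each single library left out. Of the list, 5 were called with the sex term or the replicate block, 4 without cKO 4 and WT 4, and 4 within libraries with Y-linked reads and 4 within those without. St14, a membrane serine protease named after its values were seen, lost its call with the sex term (adjusted p = 0.207), with the replicate block (0.0634) and without each single library other than WT 1 (0.0508 to 0.136).

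Of 14 listed genes for proteins that these proteases cut 13 were tested, and 11 were called higher and 0 lower. Their median log2 fold change was 1.74, beside -0.01 over all tested genes. Of all tested genes 9.57% were called higher and 7.14% lower. The share called in either direction was 6.8% with the sex term and 4.1% without cKO 4 and WT 4. Col1a1 and Dcn also stand among the fibroblast markers. Col3a1, a fibrillar collagen, was at 193 ± 57.4 CPM in cKO and 24.3 ± 6.07 CPM in WT (2.99, edgeR adjusted p = 9.23e-05). Fn1, fibronectin, was at 124 ± 25.8 CPM in cKO and 19.5 ± 5.74 CPM in WT (2.67, adjusted p = 0.000155). Sparc and Col1a2 had log2 fold changes of 2.67 and 2.10. With the sex term 10 of the 13 were called, without cKO 4 and WT 4 7 were, and within libraries with and without Y-linked reads 6 and 2 were.

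Related metalloproteases did not all move this way. Of 17 tested ADAM and ADAMTS genes 4 were called higher and 1 lower, and 12 were not called. The shares over all tested genes were 9.57% higher and 7.14% lower. Adamts2, a procollagen processing enzyme, had a log2 fold change of 2.01 (edgeR adjusted p = 0.00358), Adamts1 1.37 (adjusted p = 0.00642) and Adamts16 2.07 (adjusted p = 0.0114). Adamts15 was at -1.70 (adjusted p = 0.0195), in groups that overlapped, and its call ended without cKO 2 (0.0537), cKO 4 (0.0723) or WT 3 (0.0578). With the sex term 2 were called higher and 0 lower. Of the 7 metallopeptidases of the proximal brush border 4 were called lower and 0 higher. Mep1b, a meprin subunit, was at 33.2 ± 30.5 CPM in cKO and 351 ± 65.9 CPM in WT (-3.40, adjusted p = 0.00485). Ace, angiotensin-converting enzyme, was at 55.3 ± 30.4 CPM in cKO and 286 ± 102 CPM in WT (-2.37, adjusted p = 0.00383). Mep1a (-1.48, adjusted p = 0.0283) and Anpep (-1.20, adjusted p = 0.0285) lost the call with library size scaling, at adjusted p = 0.0521 and 0.0660, and with the sex term, at 0.173 and 0.145. Both also lost it without cKO 2, cKO 4, WT 3 or WT 4, at adjusted p of 0.0533 to 0.0975 for Mep1a and 0.0573 to 0.0971 for Anpep. The proximal tubule sum given with Timp3 moved the same way, and its part here was not tested.

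Where 9.57% of all tested genes were called higher and 7.14% lower, the next lists gave these counts. Of 10 tested genes among the transcription factors and cytokines known to control metalloproteinase genes, 4 were called higher and 0 lower. These were Fosl2 at 23.4 ± 8.32 CPM in cKO and 8.02 ± 1.65 CPM in WT (1.54, edgeR adjusted p = 0.00407), Jun (1.25, adjusted p = 0.00705), Junb (1.06, adjusted p = 0.0121) and Tgfb1 (1.21, adjusted p = 0.0138). Without cKO 4 and WT 4, 1 was called. Fosl1, a further AP-1 subunit named after its values were seen, was below the filter, with 10, 10, 4 and 68 counts in cKO 1 to cKO 4 and 0 in WT. Of the markers of injured tubules 5 of 5 were called higher, with sums of 514 to 1848 CPM in cKO and 7.89 to 19.2 CPM in WT. Havcr1, the kidney injury molecule, was at 549 ± 306 CPM in cKO and 2.00 ± 0.134 CPM in WT. The 6 T cell markers summed to 7.90 to 17.9 CPM in cKO and 4.33 to 9.58 CPM in WT, 5 podocyte markers to 103 to 261 and 173 to 333 CPM, and 5 endothelial markers to 169 to 211 and 167 to 229 CPM. Of these, only the T cell marker Lck was called higher (1.65, edgeR adjusted p = 0.00772) and only the endothelial marker Kdr lower (-1.13, adjusted p = 0.00416). Both calls held with the sex term (0.0291 and 0.0227), and that of Lck ended without cKO 4 and WT 4 (0.0614). The part of these cell types in the values of the 10 genes was not tested.

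The genes most like Timp1, Mmp7 and Mmp14 over the 8 kidneys were found by the root mean square difference of log2 CPM after centring each gene. For Timp1 these were C3 (0.556), Havcr1 (0.567) and Gsta1 (0.697). For Mmp7 they were Il1f6 (0.407), Ugt1a9 (0.529) and Sprr2g (0.581). For Mmp14 they were Neurl1a (0.165), Ccnb2 (0.223) and the macrophage marker Cd68 (0.262). These kidneys share genotype, depth and cell content, and the order is a description of them.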

How the data were processed

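Per the labels' protocols, RNA was isolated from flash-frozen kidneys with an RNeasy column and made into stranded libraries of polyadenylated RNA. The authors deposited an expected count per Ensembl gene from RSEM after STAR on mm10, per the submitters' processing notes. Versions, strand setting and annotation release are not given in the sources used. Of 47643 identifiers 47224 were matched to symbols and positions in GENCODE M21 of the same build.

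Expected counts were rounded to whole numbers, kept by filterByExpr on genotype (13829 genes) and given TMM scaling factors. Genotypes were compared with the two-sided edgeR quasi-likelihood test (glmQLFit robust, glmQLFTest). Adjusted p-values are Benjamini-Hochberg over the whole table, called at 0.05. Exact permutation used log2 CPM with a pseudocount of 0.5. A group at 0 counts was set to a floor of 3 counts, which covers counting error only. Libraries with at least 10 Y-linked counts were taken as Y-bearing. Tools were edgeR 4.0.16, DESeq2 1.42.0 and limma 3.58.1 in R 4.3.3, with tables and figures made in Python 3.11.15.

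The 10 genes and all lists were chosen with earlier results of these data known. Of other lists, up to 4 called genes with the smallest adjusted p are named, or the 2 most abundant where 0 were called, and of the remaining family all called genes. Not every listed gene that enters the counts is reported here by name. The alternatives were scaling by library size, by upper quartile or by RLE, no count filter, a filter of 1 CPM in 4 libraries, DESeq2, limma-voom, terms for age, sex and replicate number, contrasts within libraries with or without Y-linked reads, and leaving out single libraries or pairs of them.

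The test was tested on simulated data drawn from these counts, with 13655 genes. It recovered 13.5% of 96 genes set to change 2-fold and 86.6% of 97 set to change 4-fold, and 8 of its 105 calls were false.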

Additional observations from a re-analysis of the deposited data

Results flagged for a closer look

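Over 111 groups of 4 kidneys, each of the 10 genes and of the listed genes that the naming rule takes in cKO or WT, a single library stood far from the other 3 in 2, where chance gives about 1 in 20. Neither was a metalloproteinase or TIMP. Aqp2, a water channel of the collecting duct, was at 2113 CPM in cKO 4, against 710.1 to 814 CPM in the other cKO kidneys. Krt20, a keratin of injured tubules, was at 1.72 CPM in WT 2, against 0.0816 to 0.259 CPM in the other WT kidneys.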

How the results depend on the processing

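The 9 tested genes gave 198 values over 22 alternatives, of which 185 kept direction and call, 13 kept direction without the call and 0 changed direction. All 9 were called under every scaling, filter, tool, age and replicate block setting and without the 2.5-month pair. They were also called with any single library left out, where the highest edgeR adjusted p was 0.0383, for Timp3. Mmp3, Mmp7, Mmp10 and Timp1, which entered the test through the cKO kidneys and had to differ, are among the 9. The counts of kept calls are therefore not read as support. The 13 lost calls came with the sex term (Timp3), within libraries with Y-linked reads (Mmp12, Timp2, Timp3), within those without them, where 2 genes were called, and without cKO 4 and WT 4 (Timp2, Timp3). Over all genes 2310 were called, 1323 higher and 987 lower. The count was 941 with the sex term, 480 and 120 within libraries with and without Y-linked reads, 1397 without the 2.5-month pair, 568 without cKO 4 and WT 4, and 1155 to 3093 with single libraries left out, lowest without cKO 4 and highest without WT 1; 1288 were called without WT 4 and 1438 without WT 3. The settings within sexes and those that leave out libraries use fewer kidneys, and other causes were not tested. Library size scaling gave 1866 higher and 550 lower and moved the median of all genes to 0.15, and Timp2 and Timp3 were then at 1.31 and -1.62. Same-numbered kidneys deviated together with correlations of -0.10, 0.32, 0.12 and 0.01, against -0.30 to 0.23 for different numbers, so the numbers were not taken as pairs, and with the replicate block 2208 genes and the same number of the described genes, 9, were called. Depth limits Mmp9, the WT values of Mmp7, Mmp10 and Timp1, and the silent genes of the chromosome 9 cluster.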
